A study of Mus musculus with 8 samples.

Results

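The 31 genes described here encode enzymes of the tricarboxylic acid (TCA) cycle, without the 2-oxoglutarate dehydrogenase complex and not every other step, the pyruvate dehydrogenase complex with its kinases and phosphatase, the mitochondrial carriers of pyruvate and citrate, and enzymes that feed the cycle or use its citrate. They were chosen by function, as a list of symbols matched exactly to the gene column; the rule uses no measured value, but the list, Ogdh left out, was drawn up with earlier results of these data known. All 31 were found among the 27710 genes listed for each of the 8 libraries, and all 31 passed the filter on low counts.

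RNA was sequenced from lineage-depleted mouse bone marrow, the blood stem and progenitor cells left once mature cells are removed, kept in culture with cytokines, SCF, Flt3L and IL3 among them. The mutant cells are Vav-iCre+; Alkbh5fl/fl (vcAlkbh5 in the library titles), in which a Cre recombinase driven by Vav, active in blood-forming cells, acts on floxed copies of Alkbh5, whose product removes the methyl group of N6-methyladenosine from RNA. The cells they are set against are labelled WT, with no word on whether these carry Cre or floxed alleles or on the age and sex of the mice. For each genotype there are 3 libraries of cells fed 4-thiouridine (s4U, 100 µM for 2 h), a uridine analogue built into newly made RNA, and 1 library of cells given no agent. RNA of all 8 went through TimeLapse chemistry, which changes how s4U is read, and the values here are counts of all reads per gene, so neither the share of new RNA nor a half-life was analysed.

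The TCA cycle runs in the mitochondrial matrix, where it oxidises the acetyl group of acetyl-CoA to carbon dioxide and hands electrons to NAD and to the respiratory chain. Pyruvate, the end product of glycolysis, crosses the inner membrane through a carrier and becomes acetyl-CoA on the pyruvate dehydrogenase complex, a step that kinases close and phosphatases open. Citrate that leaves the mitochondrion supplies acetyl-CoA for lipid synthesis, and pyruvate carboxylase refills the cycle. In bone marrow, stem cells are known to lean on glycolysis, and dividing progenitors to use mitochondrial oxidation more.

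Counts assigned to genes ranged from 5723245 to 8615997 per library, and a member had between 17 counts (Pdk2, in its lowest library) and 2737 counts (Mdh2, in its highest). Alkbh5 itself had 0, 1 and 1 counts in vcAlkbh5 fed replicates 1 to 3, against 1166, 1479 and 1061 counts in WT fed replicates 1 to 3, and 1 count in the unlabelled vcAlkbh5 library against 1263 in the unlabelled WT one. Whether each replicate is a separate mouse is not stated in the labels, and p-values therefore reflect only the spread among these samples. Replicate 2 of each genotype had 13896 (vcAlkbh5) and 17471 (WT) counts of Xist, the RNA of the inactive X chromosome, and 0 of the Y-linked Ddx3y, while fed replicates 1 and 3 had at most 2 counts of Xist and 200 to 552 of Ddx3y, so the fed libraries of a genotype differ in sex and do not all come from 1 mouse. The unlabelled library of either genotype held both RNAs. WT fed replicate 3 stood apart: 14.2% of its counts fell on the gene Gm26917, against 6.33% to 8.34% in the other 7, and 7 markers of stroma and endothelium summed to 1966 CPM (counts scaled to a common library size), against 108 to 697 CPM elsewhere. The markers of blood progenitors (10 of 10 tested) summed to between 5831 and 10670 CPM in fed libraries, mature neutrophil markers summed to between 1273 and 2012 CPM in vcAlkbh5 and between 804 and 3246 CPM in WT fed libraries, and no marker in any of the 9 cell type lists was at 0 in all libraries.

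RNA levels differed widely among the members. Levels between genes are compared as CPM, scaled by the TMM factors of all 8 libraries, per kb of merged exons. Mdh2, the mitochondrial malate dehydrogenase, was the highest, at 87.2 ± 12.1 CPM per kb in vcAlkbh5 and 111 ± 30.95 CPM per kb in WT fed libraries (SD, n = 3 each). Sdha, the flavoprotein subunit of succinate dehydrogenase, came next at 66.9 ± 5.53 CPM per kb in vcAlkbh5 and 65.3 ± 9.85 CPM per kb in WT. Lowest in WT were Pdk2, Pcx and Pdp1, followed by Mpc2 (rank 28 of 31) and Sdhaf2 (27). Not all genes of control and refilling were low, as Pdk3 ranked 16 and Me2 20. Pdk2, a pyruvate dehydrogenase kinase, had 1.32 ± 0.22 CPM per kb in vcAlkbh5 and 1.27 ± 0.41 CPM per kb in WT. Pcx, pyruvate carboxylase, had 1.92 ± 0.93 CPM per kb in vcAlkbh5 and 2.03 ± 0.38 CPM per kb in WT. Pdp1, a catalytic phosphatase, had 3.41 ± 1.16 CPM per kb in vcAlkbh5 and 2.49 ± 0.72 CPM per kb in WT. The median member had 14.9 CPM per kb in WT fed libraries, against 6.63 CPM per kb over 11252 tested protein-coding genes, and 23 of 31 members lay above that median. Among those genes the members' percentiles ran from 14.2 (Pdk2) to 97.2 (Mdh2). With the longest coding transcript as the length, an alternative chosen after seeing the data, the median member had 21.7 CPM per kb; Mdh2 and Sdha stayed highest and Pdk2, Pcx and Pdp1 lowest, while Mpc2 ranked 17 in place of 28.

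**Figure D1:**
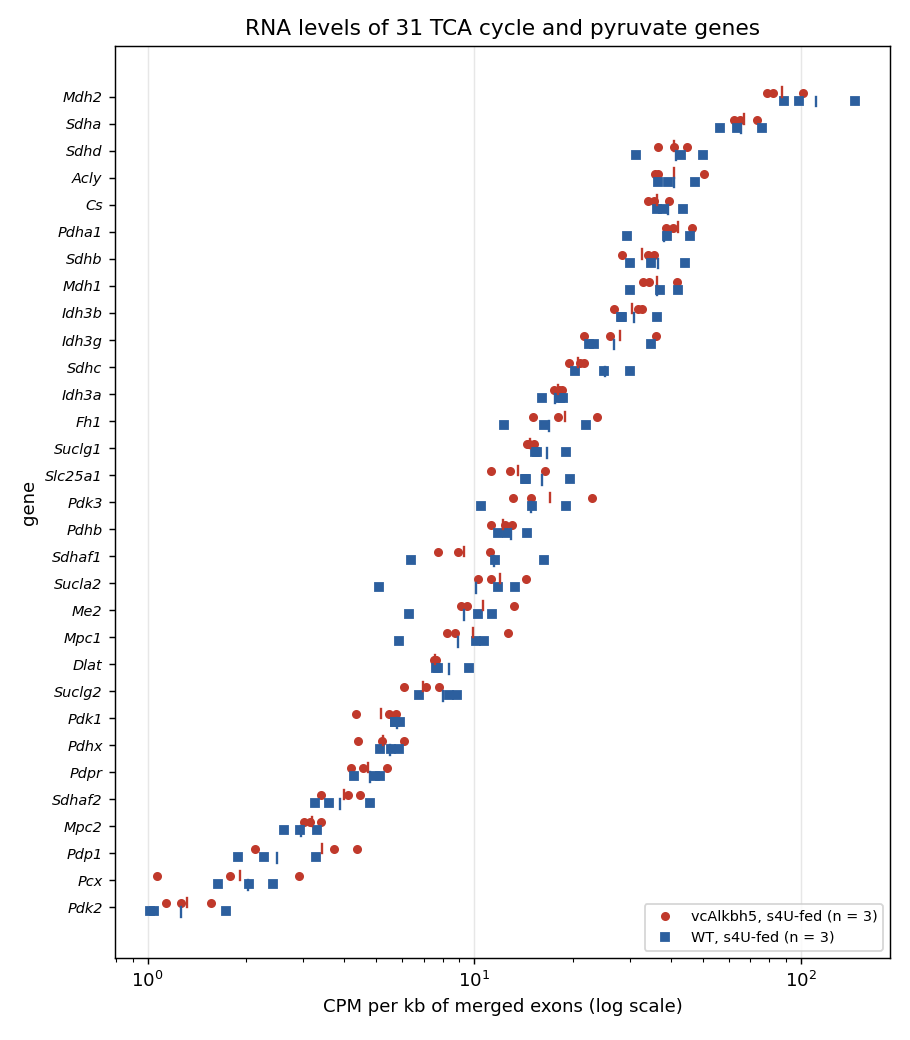
RNA level of each of the 31 genes in every s4U-fed library, in CPM per kb of merged exons on a log axis, with genes ordered by their WT mean; circles are the 3 vcAlkbh5 libraries, squares the 3 WT libraries, and short bars the group means. The order runs from Mdh2 at 87.2 CPM per kb in vcAlkbh5 and 111 in WT down to Pdk2 at 1.32 in vcAlkbh5 and 1.27 in WT, and the 2 sets of points overlap for every gene but Suclg1 and Dlat.

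Across the fed libraries, no member's difference between genotypes passed the test. Of 31 members, 0 passed an adjusted p of 0.05 in edgeR's quasi-likelihood test with Benjamini-Hochberg adjustment over 13342 genes, in which 0.0075% of genes were called: 1 gene, Alkbh5. The members' log2 fold changes (vcAlkbh5 over WT) ranged from -0.35 to 0.45 with a median of -0.02, 13 positive and 18 negative, beside a median of 0.00 and 50.2% positive over all tested genes. At an unadjusted p under 0.05 there were 0 members by edgeR, beside 1.13% of all genes, and DESeq2 called 0 members, beside 0.00803% of 24909 genes with counts. Every adjusted p of a member was 1.00. In whole libraries, a change in how many cells of a type were present and a change in RNA per cell cannot be told apart.

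The size of difference that these libraries leave possible is given by the 95% intervals. For 29 of 31 members the interval lay within a log2 fold change of 1 either way, beside 8955 of all 13342 tested genes. The median SE was 0.19 for the members and 0.26 over all tested genes. The intervals of Sdhaf1 (-1.05 to 0.45) and Pdp1 (-0.30 to 1.20) went further. Ogdh, the subunit of the 2-oxoglutarate dehydrogenase complex that the list leaves out, had a log2 fold change of -1.20 (interval -1.56 to -0.84), at 93.1, 115 and 97.4 CPM in vcAlkbh5 fed libraries against 239, 209.8 and 252 CPM in WT ones, although its adjusted p by edgeR was 0.349. All 31 members had a lower bound above the Ogdh estimate of -1.20. The lower bounds of 28 members also lay above -0.84, the upper bound for Ogdh, and those of Sdhaf1, Mdh2 and Pcx did not. Ogdh was left off the list with earlier results known, so this contrast follows in part from how the list was drawn. The shares of all tested genes with such lower bounds were not counted.

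**Figure D2:**
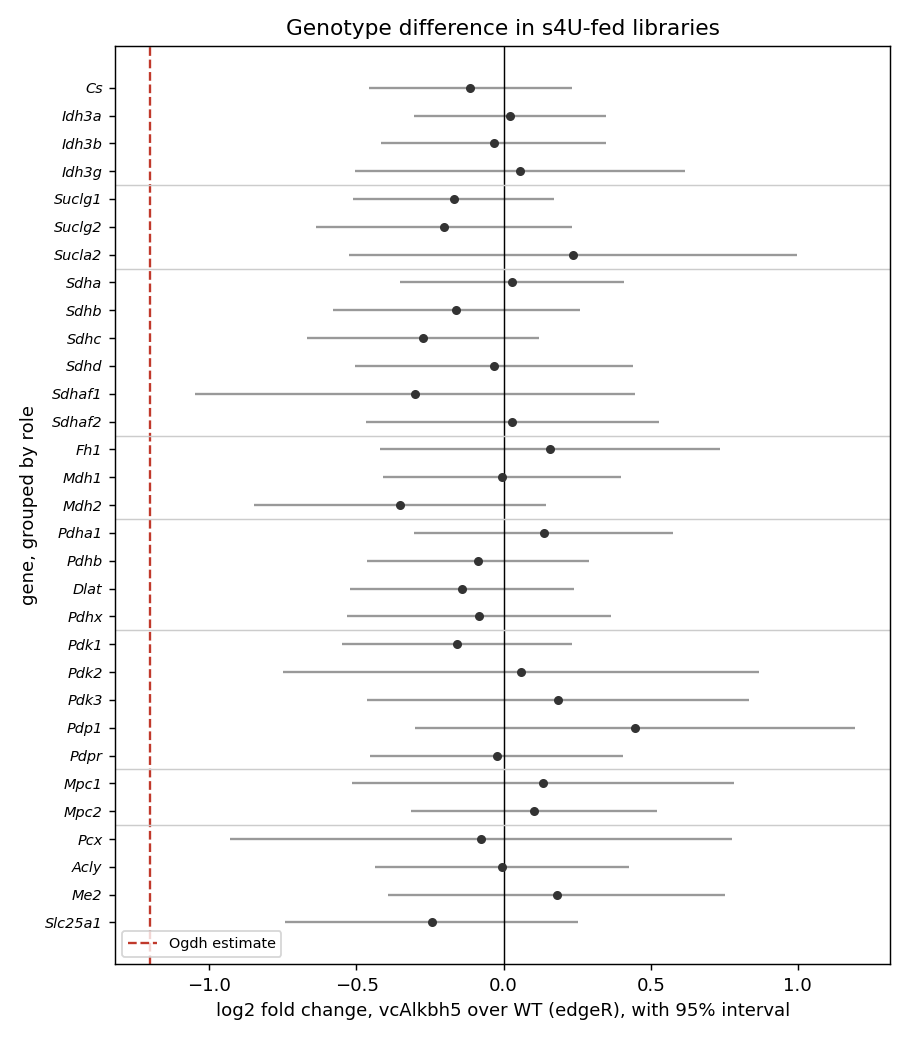
Log2 fold change of each gene between genotypes (vcAlkbh5 over WT, s4U-fed libraries, 3 per genotype) on the x axis, with 95% intervals from edgeR; grey lines part the role groups and the dashed line marks the Ogdh estimate of -1.20. All 31 intervals span 0, and all 31 lower bounds lie to the right of the dashed line. Ogdh was left off the list with earlier results known, and the share of all tested genes with such bounds was not counted.

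Citrate synthase and the NAD-linked isocitrate dehydrogenase open the cycle. Cs, the enzyme that joins acetyl-CoA to oxaloacetate, had 228, 205 and 196 CPM in vcAlkbh5 fed replicates 1 to 3 against 251, 218 and 209 CPM in WT ones. It was lower in vcAlkbh5 in each same-numbered pair, but the groups overlapped, and its log2 fold change was -0.11 ± 0.15 (SE), or -0.03 without WT replicate 1, -0.07 without vcAlkbh5 replicate 3 and -0.17 without vcAlkbh5 replicate 1. The isocitrate dehydrogenase subunits had closer means. Idh3a, the catalytic subunit, averaged 91.6 ± 2.49 CPM in vcAlkbh5 and 89.8 ± 7.06 CPM in WT, and Idh3b, a regulatory subunit, 104 ± 10.9 CPM in vcAlkbh5 and 106 ± 16.2 CPM in WT (SD, n = 3 each). Idh3g, the other regulatory subunit, had 97.3, 58.3 and 70.3 CPM in vcAlkbh5 against 93.6, 60.5 and 62.6 CPM in WT, with replicate 1 of each genotype far above the rest.

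Succinyl-CoA synthetase, which makes GTP or ATP in the cycle, has a shared alpha subunit (Suclg1) and a beta subunit that is GTP-linked (Suclg2) or ATP-linked (Sucla2). Suclg1 (ENSMUSG00000052738.14, chromosome 6, 73248382 to 73276911, plus strand, GRCm38) had 70.2, 67.1 and 67.8 CPM in vcAlkbh5 against 70.6, 71.9 and 87.8 CPM in WT. Its groups did not overlap, by a margin of less than 1 CPM. The log2 fold change was -0.17 ± 0.15 (SE), with an unadjusted p of 0.285 by edgeR. It was -0.06 without WT replicate 3, -0.21 without WT replicate 2 and -0.23 without WT replicate 1. Suclg1 and Dlat were the only 2 of 31 members, 6.45%, whose fed groups did not overlap, both lower in vcAlkbh5; of all tested genes 5.68% did not overlap. Suclg2 had 28.1, 36.0 and 32.8 CPM in vcAlkbh5 against 38.6, 41.0 and 31.3 CPM in WT, and Sucla2 57.3, 41.1 and 44.9 CPM in vcAlkbh5 against 52.9, 47.3 and 20.4 CPM in WT. Both genes overlapped between genotypes. Sucla2 in WT fed replicate 3 was under all other 7 libraries, and its log2 fold change of 0.23 ± 0.33 (SE) became -0.07 without that library, 0.09 without vcAlkbh5 replicate 1, 0.37 without WT replicate 2 and 0.48 without WT replicate 1.

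The Suclg2 counts have a limit in the genome itself. Gm15163 (chromosome X, 157016229 to 157017530, minus strand) copies the whole coding region of Suclg2 (chromosome 6, 95473009 to 95718800, minus strand) over 1302 bases with 14 differences, 98.9% identity and an identical run of up to 231 bases. It drew 588 counts over 8 libraries, 30.7% of the 1913 counts of Suclg2, and reads from the identical runs cannot be told apart. The stretch shown, 60 bases of each transcript from GENCODE M21, holds 3 of the differences, in capitals: C17G, C30A and C46A, with the Suclg2 base first and positions counted from 1 at the 5′ end of the stretch.
Suclg2: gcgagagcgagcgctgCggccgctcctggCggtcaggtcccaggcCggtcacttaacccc
Gm15163: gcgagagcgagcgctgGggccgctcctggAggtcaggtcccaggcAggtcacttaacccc
The log2 ratio of Sucla2 to Suclg2 counts within a library was 1.03, 0.19 and 0.45 in vcAlkbh5 fed libraries against 0.45, 0.20 and -0.62 in WT ones, a difference of 0.54 in the means (exact two-sided permutation test, p = 0.5; Benjamini-Hochberg over 4 ratios, 0.667). The difference was 0.23 without WT replicate 3 and 0.31 without vcAlkbh5 replicate 1. An exact permutation test of 3 libraries against 3 cannot go below p = 0.1. With the Gm15163 counts added to Suclg2 the difference was 0.56 (exact p = 0.4). In the unlabelled pair the ratio was 0.82 in vcAlkbh5 and 0.82 in WT.

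Succinate dehydrogenase oxidises succinate and is also complex II of the respiratory chain. Sdha and Sdhb, the catalytic flavoprotein and iron-sulfur subunits, had close means: Sdha 276 ± 22.8 CPM in vcAlkbh5 and 269 ± 40.6 CPM in WT, and Sdhb 72.9 ± 8.44 CPM in vcAlkbh5 and 81.4 ± 16.2 CPM in WT (SD, n = 3 each). Sdhc, a membrane anchor, had 70.3, 68.4 and 63.3 CPM in vcAlkbh5 against 81.2, 65.9 and 97.1 CPM in WT, a log2 fold change of -0.27 ± 0.17 (SE) with an unadjusted p of 0.148 by edgeR. The groups overlapped through WT replicate 2, and the value was -0.12 without WT replicate 3 and -0.40 without WT replicate 2. Sdhd, the other anchor, averaged 50.1 ± 5.09 CPM in vcAlkbh5 and 51.1 ± 11.8 CPM in WT. Sdhaf1, an assembly factor of the iron-sulfur subunit, had 19.3, 27.8 and 22.2 CPM in vcAlkbh5 against 16.0, 28.7 and 40.8 CPM in WT; its log2 fold change of -0.30 ± 0.33 (SE) became 0.04 without WT fed replicate 3, -0.19 without vcAlkbh5 replicate 1, -0.46 without vcAlkbh5 replicate 2 and -0.59 without WT replicate 1. On the opposite strand, E130208F15Rik covers 69.6% of the Sdhaf1 exon bases. For Mpc1, 23.05% of the exon bases are covered in this way by 4930506C21Rik, and for Pdha1, 16.15% by Map3k15. The sources used here do not give the strand setting of the counting, but none of the entries for reads in several genes listed a member. Whether reads of such gene pairs were mixed was not tested further. Sdhaf2, which helps attach FAD to Sdha, averaged 28.7 ± 3.95 CPM in vcAlkbh5 and 28.0 ± 5.85 CPM in WT.

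Fumarase and the malate dehydrogenases close the cycle. Mdh2 (ENSMUSG00000019179.10, chromosome 5, 135778480 to 135790398, plus strand, GRCm38) had 292, 359.8 and 279 CPM in vcAlkbh5 against 351, 316 and 522 CPM in WT, the lowest log2 fold change of the list at -0.35 ± 0.22 (SE) and an unadjusted p of 0.141 by edgeR. WT fed replicate 3 was far above the other 5, and without it the value was -0.10. The log2 fold change was -0.43 without WT replicate 1, -0.49 without WT replicate 2 and -0.47 without vcAlkbh5 replicate 2. Mdh1, the cytosolic form, averaged 93.1 ± 12.2 CPM in vcAlkbh5 and 93.2 ± 15.5 CPM in WT. Fh1, fumarase, had 80.4, 51.3 and 61.1 CPM in vcAlkbh5 against 74.4, 55.6 and 41.8 CPM in WT, overlapping throughout. Within a library, the log2 ratio of Mdh2 to Mdh1 counts was 1.45, 2.04 and 1.73 in vcAlkbh5 against 1.70, 2.04 and 2.46 in WT, a difference of -0.33 (exact two-sided permutation test, p = 0.4; Benjamini-Hochberg over 4 ratios, 0.667). It was lower in vcAlkbh5 in all 3 same-numbered pairs, in pair 2 by less than 0.01, with an exact sign-flip p of 0.25, the smallest that 3 pairs can give. The difference was -0.13 without WT replicate 3, -0.19 without vcAlkbh5 replicate 1 and -0.51 without WT replicate 1.

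Subunits of the pyruvate dehydrogenase complex, too, had differences that did not pass the test. Pdha1, the catalytic alpha subunit of its first enzyme and an X-linked gene, had 173, 144 and 152 CPM in vcAlkbh5 against 170.2, 145 and 109.6 CPM in WT (log2 fold change 0.14 ± 0.19 SE, or -0.01 without WT replicate 3, 0.06 without vcAlkbh5 replicate 1 and 0.29 without WT replicate 1). Its beta partner Pdhb averaged 47.2 ± 3.57 CPM in vcAlkbh5 and 50.0 ± 5.36 CPM in WT (SD, n = 3 each). Dlat, the acetyltransferase core (ENSMUSG00000000168.9, chromosome 9, 50634633 to 50659780, minus strand, GRCm38), had 37.1, 37.2 and 36.7 CPM in vcAlkbh5 against 47.0, 37.9 and 37.3 CPM in WT. The Dlat groups were apart by under 1 CPM and the log2 fold change was -0.14 ± 0.17 (SE), with an unadjusted p of 0.416 by edgeR. It was -0.03 without WT replicate 1 and -0.19 without either WT replicate 2 or WT replicate 3. Pdhx, which binds the third enzyme of the complex to the core, averaged 20.6 ± 3.34 CPM in vcAlkbh5 and 21.7 ± 1.43 CPM in WT.

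Kinases and a phosphatase set the activity of the complex. Pdp1 (ENSMUSG00000049225.14, chromosome 4, 11958184 to 11966452, minus strand, GRCm38), which removes the inhibitory phosphate, had 19.8, 9.58 and 16.8 CPM in vcAlkbh5 against 14.8, 10.3 and 8.55 CPM in WT. Its log2 fold change of 0.45 ± 0.33 (SE) was the highest of the list, with an unadjusted p of 0.207 by edgeR, and vcAlkbh5 replicate 2 lay among the WT values. The value was 0.24 without vcAlkbh5 replicate 1, 0.695 without vcAlkbh5 replicate 2, 0.69 without WT replicate 1 and 0.23 without both libraries of number 3. Pdpr, the regulatory subunit of the phosphatase, averaged 23.7 ± 3.16 CPM in vcAlkbh5 and 24.1 ± 2.26 CPM in WT (SD, n = 3 each). Of the kinases that shut the complex down, Pdk1 averaged 40.4 ± 5.81 CPM in vcAlkbh5 and 45.1 ± 0.86 CPM in WT, and the X-linked Pdk3 43.6 ± 13.4 CPM in vcAlkbh5 and 38.1 ± 11.1 CPM in WT. Pdk2 was low, at 4.17 ± 0.68 CPM in vcAlkbh5 and 4.01 ± 1.29 CPM in WT. Pdk1 made up 35.1%, 53.7% and 50.3% of the counts of the 3 kinases in vcAlkbh5 fed libraries against 45.0%, 51.7% and 60.5% in WT ones, a difference of -6.01 percentage points (exact two-sided permutation test, p = 0.5; Benjamini-Hochberg over 4 ratios, 0.667). The difference was -0.40 percentage points without vcAlkbh5 replicate 1, -1.98 without WT replicate 3, -9.67 without vcAlkbh5 replicate 2 and -9.69 without WT replicate 1.

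Mpc1 and Mpc2 together form the mitochondrial pyruvate carrier. Mpc1 had 26.3, 18.2 and 17.1 CPM in vcAlkbh5 against 22.3, 21.1 and 12.2 CPM in WT, and its log2 fold change of 0.13 ± 0.28 (SE) became -0.08 without WT fed replicate 3, -0.07 without vcAlkbh5 replicate 1 and 0.21 to 0.28 without any 1 of the other fed libraries. Mpc2 averaged 23.4 ± 1.41 CPM in vcAlkbh5 and 21.7 ± 2.54 CPM in WT (SD, n = 3 each). Mpc1 too has a near-identical copy: Mpc1-ps (chromosome 12, 110858565 to 110858894, minus strand) matches the 330 coding bases of Mpc1 (chromosome 17, 8282904 to 8297661, plus strand) with 1 difference, 99.7% identity and an identical run of 289 bases. It drew 240 counts over 8 libraries, 21.5% of the 1117 counts of Mpc1. The stretch with that difference, in capitals and written G31A from Mpc1 to the copy, is shown as 60 bases of each transcript from GENCODE M21.
Mpc1: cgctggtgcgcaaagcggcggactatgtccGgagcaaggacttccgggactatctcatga
Mpc1-ps: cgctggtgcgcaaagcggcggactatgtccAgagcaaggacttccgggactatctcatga
The log2 ratio of Mpc1 to Mpc2 counts averaged -0.21 ± 0.40 in vcAlkbh5 and -0.27 ± 0.34 in WT (SD, n = 3 each), a difference of 0.06 (exact two-sided permutation test, p = 1), and 0.03 with the copy's counts added to Mpc1 (exact p = 1).

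Enzymes that refill the cycle or use its citrate overlapped between genotypes as well. Pcx had 5.09, 13.8 and 8.51 CPM in vcAlkbh5 against 7.83, 9.68 and 11.5 CPM in WT, with both extremes in vcAlkbh5. Slc25a1, the mitochondrial citrate carrier, had 24.4, 35.7 and 27.9 CPM in vcAlkbh5 against 31.1, 30.9 and 42.4 CPM in WT, a log2 fold change of -0.24 ± 0.22 (SE), or -0.08 without WT replicate 3, -0.13 without vcAlkbh5 replicate 1 and -0.41 without vcAlkbh5 replicate 2. Acly, ATP citrate lyase, which splits the exported citrate, averaged 216 ± 44.4 CPM in vcAlkbh5 and 216 ± 29.3 CPM in WT (SD, n = 3 each). Me2, the mitochondrial NAD-linked malic enzyme, had 95.6, 69.0 and 66.1 CPM in vcAlkbh5 against 82.1, 74.4 and 45.7 CPM in WT; its log2 fold change of 0.18 ± 0.25 (SE) became -0.02 without WT fed replicate 3, 0.00 without vcAlkbh5 replicate 1, 0.27 without vcAlkbh5 replicate 3 and 0.34 without WT replicate 1. By role, the median log2 fold change ran from -0.17 for succinyl-CoA synthetase to 0.12 for the pyruvate carrier, and no role group had a called member. Without WT fed replicate 3, 16 of 31 members changed sign, and the share of all tested genes that did so was not counted.

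Few members kept a direction across same-numbered pairs. Log2 differences within pairs 1, 2 and 3 had member medians of -0.06, -0.03 and 0.07, and 3 members, Cs, Suclg1 and Dlat, 9.68% of the list, went the same way in all 3 pairs, each time lower in vcAlkbh5. Of all tested genes 23.2% went the same way in all 3 pairs. The summed level of the 31 members was 2560, 2342 and 2234 CPM in vcAlkbh5 fed replicates 1 to 3 against 2674, 2320 and 2443 CPM in WT ones, so the totals overlapped too.

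The libraries of number 1 stood apart from the rest for many members, in both genotypes. In 13 of 31 members, 41.9%, both libraries of number 1 were above the 4 other fed libraries, beside 22.3% of all tested genes: Cs, Idh3b, Idh3g, Sucla2, Sdha, Sdhd, Fh1, Mdh1, Pdha1, Pdk3, Mpc1, Acly and Me2. These include all 3 X-linked members (Idh3g, Pdha1 and Pdk3), but the share over all X-linked genes was not counted. The libraries of number 3, which were like those of number 1 in Xist and Ddx3y, are among the 4 others. For Pdk3 the number 1 libraries had 58.8 CPM in vcAlkbh5 and 48.9 CPM in WT, and the other fed libraries 33.7 and 38.2 CPM in vcAlkbh5 and 38.4 and 26.8 CPM in WT. For Acly the number 1 libraries had 267 CPM in vcAlkbh5 and 249 CPM in WT, and the other 4 between 188 and 206 CPM. In 3 members, Sdhaf1, Sdhaf2 and Pcx, 9.68%, both number 1 libraries were below the others, beside 19.2% of all genes. The summed markers of 6 of 9 cell type lists moved with the number, while single markers, of which a few abundant ones can decide a sum, were not compared. Summed progenitor markers had 10643 CPM in vcAlkbh5 and 10670 CPM in WT replicate 1, against 5831 to 7798 CPM in the other fed libraries. Neutrophil markers (2012 CPM in vcAlkbh5 and 3246 in WT, against 804 to 1639) and monocyte and macrophage markers (1310 CPM in vcAlkbh5 and 1065 in WT, against 582 to 769) were higher too. Erythroid markers (81.4 CPM in vcAlkbh5 and 93.4 in WT, against 132 to 210), B lineage markers (21.5 CPM in vcAlkbh5 and 49.1 in WT, against 114 to 212) and markers of stroma and endothelium (108 CPM in vcAlkbh5 and 109 in WT, against 377 to 1966) were lower. Reads in no gene made up 37.6% of counts in vcAlkbh5 and 38.3% in WT replicate 1, against 48.9% to 50.3% in the other fed libraries. The part of these measures in the result was not tested.

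The members' promoters were searched for motifs of factors known for mitochondrial and growth genes. RefSeq promoters (GRCm38.p6) were matched for 27 of 31 members by symbol, all but Idh3a, Sdhc, Pdp1 and Me2, and the 250 bases before each start were searched on both strands. The motif of NRF1, a factor named for its role at nuclear genes of respiration, spelled GCGCA, any base, then GCGC, was in 3 of 27 members, 11.1% (Sdha, Sdhd and Sucla2), and in 4.23% of 27025 genes. The ETS motif CCGGAAG, read by GABP, was in 4 members, 14.8% (Idh3g, Mpc1, Sdhaf2 and Sdhd), and in 7.83% of genes. The E-box CACGTG, read by MYC and other factors, was in 4 members, 14.8% (Pcx, Pdk2, Pdpr and Slc25a1), and in 6.86% of genes, and a YY1 motif, AAGATGG followed at once by CGGC, was in 0 members and 0.248% of genes. The last 150 bases before the start are shown for the 3 members with an NRF1 match, with matches in capitals. Sdhd also holds the ETS motif, on the other strand, and no 2 matches shown overlap.
Sdha, chr13:74350241-74350390, minus strand: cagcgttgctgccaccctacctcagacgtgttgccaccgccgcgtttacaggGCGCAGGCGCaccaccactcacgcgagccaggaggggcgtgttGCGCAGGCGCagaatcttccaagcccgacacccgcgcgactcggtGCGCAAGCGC
Sdhd, chr9:50603850-50603999, minus strand: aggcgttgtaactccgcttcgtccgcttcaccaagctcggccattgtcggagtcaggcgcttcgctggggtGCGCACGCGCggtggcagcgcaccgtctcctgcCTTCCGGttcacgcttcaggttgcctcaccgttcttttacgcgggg
Sucla2, chr14:73552636-73552785, plus strand: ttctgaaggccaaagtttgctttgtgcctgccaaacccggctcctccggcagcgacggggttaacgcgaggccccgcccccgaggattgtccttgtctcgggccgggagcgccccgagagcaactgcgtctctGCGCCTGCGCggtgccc
A match is a run of letters and does not show that the factor binds there.

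**Figure D3:**
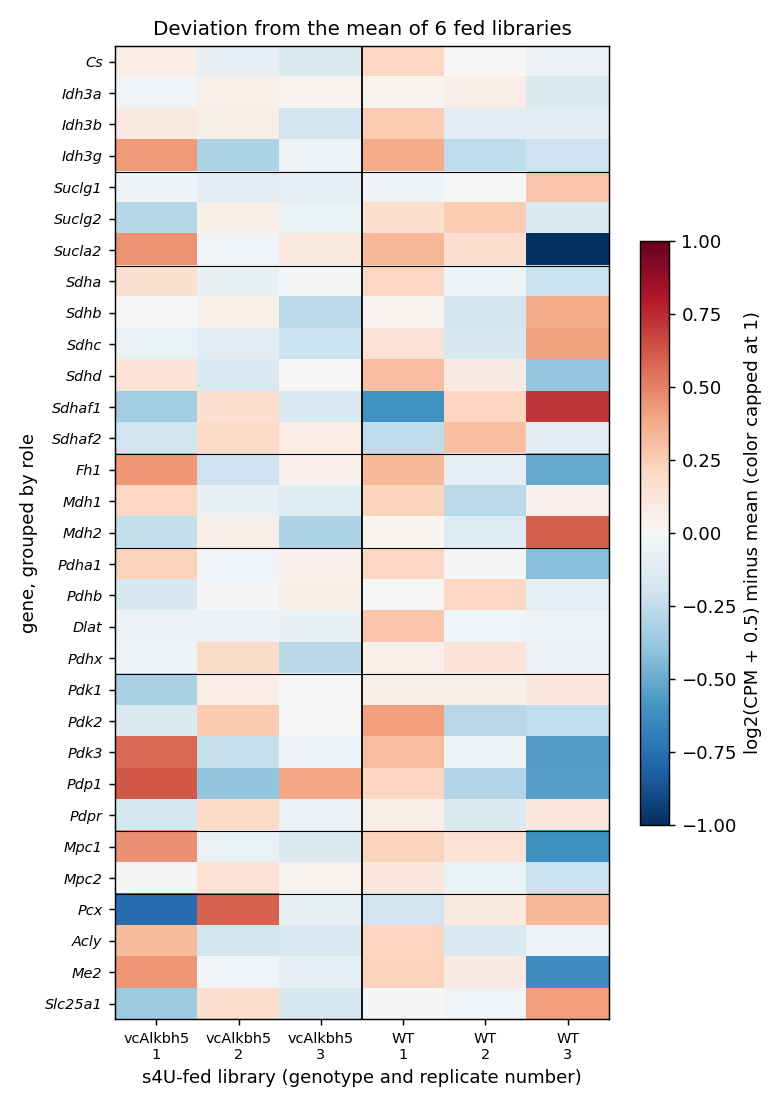
Deviation of each gene in each s4U-fed library from its mean over the 6 fed libraries, on the log2(CPM + 0.5) scale, as color from blue (lower) to red (higher) and capped at 1; columns are vcAlkbh5 replicates 1 to 3 and WT replicates 1 to 3, and black lines part the role groups. Replicate 1 of both genotypes is above all other columns for 13 genes, and WT replicate 3 holds the extremes, from Sucla2 at -1.02 to Sdhaf1 at 0.72.

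WT fed replicate 3 was the lowest of the 6 fed libraries for 11 of 31 members (35.5%, beside 27.8% of all genes) and the highest for 7 (22.6%, beside 28.5%). Among the fed libraries the same one had the highest sums of stromal markers and of megakaryocyte markers (292 CPM, against 101 to 136 CPM) and the lowest of neutrophil markers (804 CPM, against 1273 to 3246 CPM) and of monocyte and macrophage markers (582 CPM, against 712 to 1310 CPM); their part was not tested. Its lowest members included Sucla2, Pdk3, Me2 and Mpc1, and its highest Mdh2, Sdhaf1, Slc25a1, Sdhb and Sdhc. In some libraries the members' deviations went with the GC content of their transcripts, which ran from 42.9% in Pdp1 to 59.5% in Slc25a1. In WT fed replicate 3, Spearman's rho between deviation and GC was 0.64 over the 31 members and 0.54 over 13198 genes. In vcAlkbh5 fed replicate 3 it was -0.60 over the members and -0.48 over all genes, and in vcAlkbh5 fed replicate 1 it was -0.45 over the members but -0.04 over all genes. These are correlations across genes within a library, and genes are not independent replicates. With offsets that remove the GC trend, added after seeing the data, edgeR called 0 members between genotypes. Mdh2 then had a log2 fold change of -0.23 in place of -0.35, and Slc25a1 -0.07 in place of -0.24. Sucla2, Pdha1, Pdp1, Mpc1 and Me2 also shrank. Sdhc stayed at -0.27 and Sdhaf1 went from -0.30 to -0.29. Suclg1 grew from -0.17 to -0.19, Dlat from -0.14 to -0.17 and Cs from -0.11 to -0.12.

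**Figure D4:**
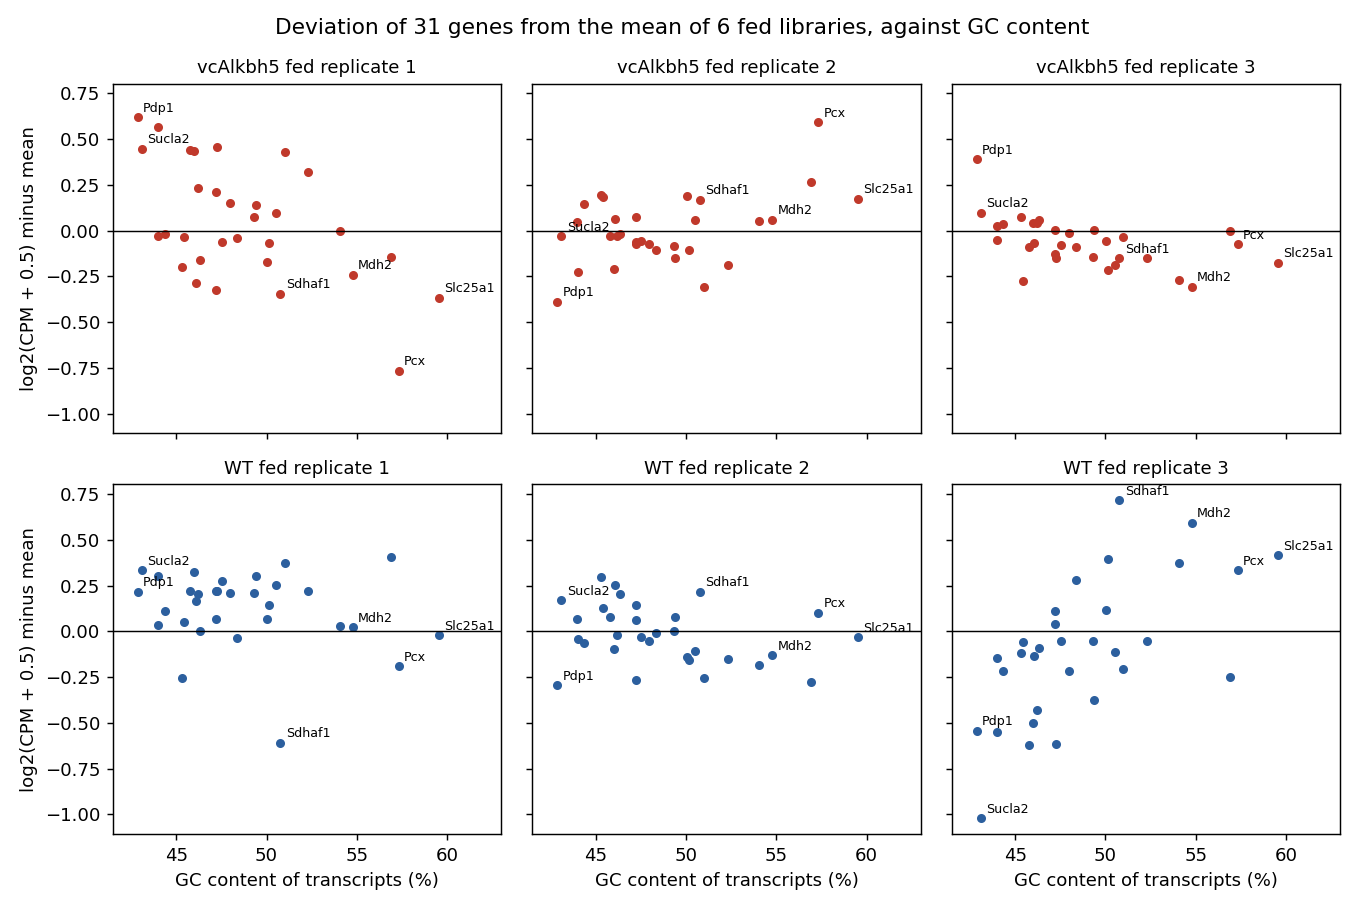
Deviation of the 31 genes from their mean over 6 fed libraries (log2(CPM + 0.5), y axis) against GC content of the transcripts (percent, x axis), with a panel per library, vcAlkbh5 in the upper row and WT in the lower. Points slope up in WT replicate 3 (rho 0.64) and down in vcAlkbh5 replicates 1 (-0.45) and 3 (-0.60).

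Set against the unlabelled libraries, most members had a higher estimated level, relative to library size, in the fed libraries, without a call by edgeR. Of 31 members 26 had a positive and 5 a negative log2 fold change with s4U, with a median of 0.22 (fed over unlabelled, all 8 libraries, genotype as a covariate), beside 0.03 and 52.1% positive over 14988 tested genes. edgeR called 0 members at an adjusted p of 0.05, beside 0.0267% of all genes. At an unadjusted p under 0.05 there were 8 members, all higher in fed libraries (25.8%, beside 19.6% of all genes in either direction and 9.53% higher): Cs, Suclg1, Sdha, Sdhb, Sdhc, Mdh1, Mdh2 and Slc25a1. DESeq2 called 2 members, Sdhb and Sdhc, both higher, beside 2.27% of all 26006 genes with counts and 1.25% called higher. The 26006 include genes to which DESeq2 gave no adjusted p and which could not be called, Pdk2 and Pcx among them. These shares are therefore lower than they would be over the genes that could be called. Each genotype has 1 unlabelled library, and these hold RNA of both sexes, so feeding and the source of the cells cannot be told apart. Progenitor markers summed to 5386 CPM in the unlabelled vcAlkbh5 library and 4543 CPM in the unlabelled WT one, under all 6 fed libraries. The same held for the markers of mast cells, basophils and eosinophils (742 to 1725 CPM in fed libraries, against 508 CPM in unlabelled vcAlkbh5 and 606 CPM in unlabelled WT) and of megakaryocytes (101 to 292 CPM in fed libraries, against 90.8 CPM in unlabelled vcAlkbh5 and 95.5 CPM in unlabelled WT). Reads in no gene made up 37.6% to 50.3% of counts in fed libraries, against 52.1% in unlabelled vcAlkbh5 and 51.7% in unlabelled WT. The part of these measures in the result was not tested.

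Subunits of succinate dehydrogenase and the malate dehydrogenases had the smallest p-values of the list in this comparison. Sdhc had 63.3 to 70.3 CPM in vcAlkbh5 fed libraries and 65.9 to 97.1 CPM in WT fed libraries, against 46.8 CPM in unlabelled vcAlkbh5 and 45.4 CPM in unlabelled WT. All 6 fed values were above both unlabelled ones, with a log2 fold change of 0.68 ± 0.18 (SE) and an adjusted p of 0.165 by edgeR and 0.0245 by DESeq2. Sdhb had 63.3 to 79.3 CPM in vcAlkbh5 fed and 67.2 to 99.1 CPM in WT fed libraries, against 50.0 CPM in unlabelled vcAlkbh5 and 51.1 CPM in unlabelled WT. Again no fed library reached down to the unlabelled ones, and the log2 fold change was 0.61 ± 0.18 (SE), with an adjusted p of 0.167 by edgeR and 0.0436 by DESeq2. Mdh1 (log2 fold change 0.51 ± 0.17 SE, adjusted p by edgeR 0.178) and Mdh2 (0.58 ± 0.21 SE, adjusted p by edgeR 0.198) showed the same order of libraries; Mdh2 had 227 CPM in unlabelled vcAlkbh5 and 242 CPM in unlabelled WT, under its lowest fed value of 279 CPM.

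Among the 31, all 6 fed libraries were above both unlabelled ones for 11 (35.5%, beside 14.7% of all genes): Cs, Idh3b, Suclg1, Suclg2, Sdha, Sdhb, Sdhc, Mdh1, Mdh2, Pdpr and Acly. They were below both for 2 (6.45%, beside 16.2%): Sdhaf2 and Pdhx. Pdhx had 17.3 to 24.0 CPM in vcAlkbh5 fed and 20.2 to 23.1 CPM in WT fed libraries, against 27.6 CPM in unlabelled vcAlkbh5 and 26.2 CPM in unlabelled WT (log2 fold change -0.35 ± 0.17 SE, adjusted p by edgeR 0.297). Sdhaf2 had 24.4 to 32.2 CPM in vcAlkbh5 fed and 23.5 to 34.6 CPM in WT fed libraries, against 34.9 CPM in unlabelled vcAlkbh5 and 35.8 CPM in unlabelled WT (log2 fold change -0.32 ± 0.19 SE, adjusted p by edgeR 0.377). Pdp1 (-0.30 ± 0.29 SE, adjusted p by edgeR 0.589) and Pdk2 (-0.23 ± 0.31 SE, adjusted p by edgeR 0.708) also had negative values, with fed and unlabelled libraries overlapping; Pdp1 was at -0.19 without vcAlkbh5 replicate 2 and Pdk2 at -0.13 without the unlabelled WT library and -0.36 without WT fed replicate 1. The subunits of the pyruvate dehydrogenase complex stayed near 0 apart from Pdhx: the log2 fold change was 0.14 ± 0.17 (SE) for Pdha1, 0.01 ± 0.15 for Pdhb and 0.00 ± 0.15 for Dlat.

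**Figure D5:**
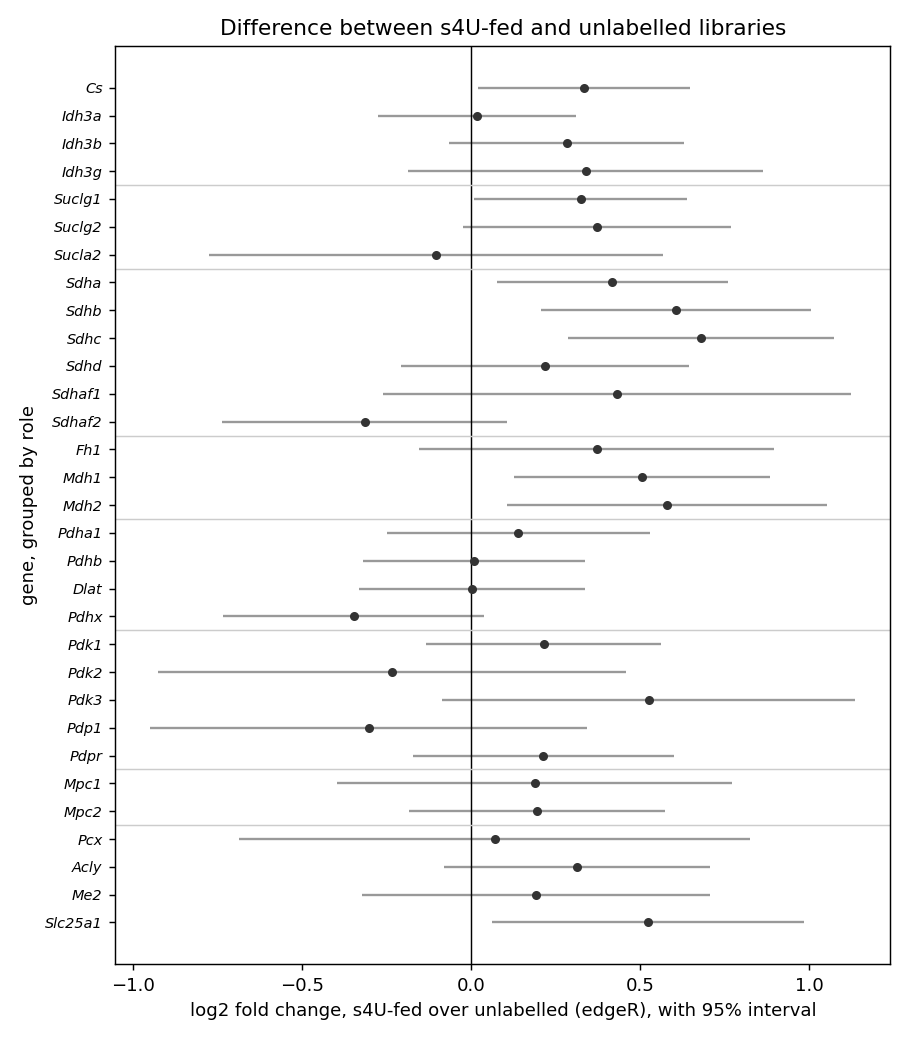
Log2 fold change of each gene between s4U-fed and unlabelled libraries (6 against 2, x axis), with 95% intervals from edgeR; grey lines part the role groups. Of the 31 points 26 lie above 0, with Sdhc at 0.68 and Sdhb at 0.61 farthest to the right and Pdhx at -0.35 farthest to the left.

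The unlabelled pair, with 1 library per genotype, has no replicate check, and its intervals cover counting error only. Pooled over the 31 members, 17713 counts in vcAlkbh5 against 15133 in WT gave a scaled ratio of 98.4% of WT (95% exact interval 96.3% to 101%). Single members ran from 82.3% of WT for Slc25a1 (66.8% to 101%) to 125% for Pdp1 (97.5% to 160%; Pdp1 had 18.1 CPM in vcAlkbh5 and 14.5 CPM in WT). For 25 of 31 the counting interval spanned 100%, and the exceptions were Idh3a, Idh3g, Sdha, Sdhd, Mdh2 and Pdhb. The share of all genes whose counting interval misses 100% was not counted, so these exceptions are not set apart from other genes. Ogdh stood at 65.0% of WT (59.7% to 70.7%). In the fit over 8 libraries, which asks whether the genotype difference changes with feeding, the interaction term was called for 0 of 31 members by both tools, for 0 of 14988 genes by edgeR and for 0 of 26006 by DESeq2, and at an unadjusted p under 0.05 by edgeR there were 0 members and 24 genes, 0.16%.

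The rest of the pathway was described with 31 further genes of the TCA cycle and pyruvate use, Ogdh among them, and 8 regulators. Between genotypes 26 of these 31 could be tested, 6 with a positive and 20 with a negative log2 fold change, a median of -0.09 and 0 called by edgeR. Dlst and Dld are named for their place in the cycle, after their values were seen. Dlst and Dld, which complete the 2-oxoglutarate dehydrogenase complex with Ogdh, had log2 fold changes of -0.09 ± 0.14 (Dlst) and 0.18 ± 0.23 (Dld, SE). Of the regulators 7 of 8 were tested, 5 positive and 2 negative, with a median of 0.07 and 0 called. With s4U, 28 of the 31 further genes were tested, 19 positive and 9 negative, with a median of 0.28 and 0 called by edgeR.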

How the data were processed

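Each deposited file gives 1 library's whole-number read counts of every gene, which the authors did not normalize, as the values show. The submitters' processing notes name HTSeq, HISAT2, STAR, cutadapt, Picard and DESeq2, and as builds GRCm38 and mm10; the sources used here give no versions, roles or strand setting for them. Libraries came from a stranded total RNA kit, per the labels' protocols. Reads in no gene (37.6% to 52.1% of counts per library) and in several genes (0.654% to 0.984%), among the 928 entries that name no gene, entered neither library sizes nor tests. The deposited counts of genes totalled 5723245 to 8615997 per library.

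Tests used edgeR 4.0.16 (R 4.3.3) with TMM scaling, filterByExpr, robust quasi-likelihood fits and, over all tested genes, Benjamini-Hochberg adjustment at 0.05: genotype in the 6 fed libraries, s4U and its interaction with genotype in all 8. The SE of a log2 fold change is its size over the root of F. Deviations used log2(CPM + 0.5). Ratios within a library used exact permutation tests (scipy 1.17.1), and the unlabelled pair exact binomial intervals, for counting error only. Coordinates, exon lengths and GC come from GENCODE M21 (27011 of 27710 symbols matched), copies from BLAST+ 2.17.0. The genotype fit was also run on simulated counts with known fold changes, as a check of the code.

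The members, gene lists and alternatives were chosen with earlier results of these data known. All 31 members are named; the fold change, SE and p are given for the 4 members per direction with the smallest p in a contrast and the member with the largest genotype change in each role group; other fold changes, such as those of Pdha1, Pdhb and Dlat with s4U, were added after their values were seen. The labels give the replicate numbers. Across 13342 genes, deviations from group means correlated between same-numbered libraries with r = 0.68, 0.29 and 0.19, each over the 0.1 set for taking numbers as pairs. The pairing rests mainly on number 1: vcAlkbh5 2 with WT 3 and vcAlkbh5 3 with WT 2 both correlated at 0.35, and over the 31 members the same-numbered values were 0.72, -0.06 and 0.02. A fit with the number as a block was an alternative. The other alternatives were DESeq2 1.42.0, RLE factors, testing without the low-count filter, an additive fit of all 8 libraries, removal of Gm26917 and Gm42418, fits within 1 genotype and leaving out single libraries. Limma voom 3.58.1 with sample weights, GC offsets by lowess (span 0.3), removal of both libraries of number 3, the copies' counts and the longest coding transcript were added after seeing the data.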

Additional observations from a re-analysis of the deposited data

Results flagged for a closer look

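Idh3a, the catalytic subunit of isocitrate dehydrogenase 3, stood on opposite sides of its unlabelled library in the 2 genotypes. It was the only member to do so and was picked out for this order. The share of all genes with such an order was not counted, so Idh3a is not set apart from other genes. All 3 vcAlkbh5 fed libraries (88.9, 93.8 and 92.2 CPM) were above the unlabelled vcAlkbh5 library (83.5 CPM). All 3 WT fed libraries (89.8 ± 7.06 CPM, SD, n = 3) were below the unlabelled WT library (96.0 CPM), but not all by much. WT fed replicates 1 and 3 had 92.7 and 81.8 CPM. WT fed replicate 2 was nearer still to the unlabelled WT library than replicate 1. The interaction term, which compares the s4U effect of vcAlkbh5 with that of WT, was 0.23 ± 0.29 (log2, SE) with an adjusted p of 1.00 by edgeR, so the difference did not pass the test. Each genotype has 1 unlabelled library, whose counts of Idh3a gave a vcAlkbh5 level of 86.9% of WT (exact 95% counting interval 78.5% to 96.3%).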

How the results depend on the processing

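No alternative gave a called member between genotypes. Genes called between genotypes, 1 in the reported fit, were 2 with no low-count filter, 2 with DESeq2, 1 with the replicate block and 2 with the replicate block and GC correction. The member median (-0.02) ran from -0.0749 to 0.0455 with single libraries left out and was -0.02 with the replicate block, which changed no member's call. Leaving out WT fed replicate 3 turned the sign of 16 of 31 members, and leaving out another fed library turned 3 to 7. The shares over all tested genes were not counted. Among the 12 members followed across alternatives, the log2 fold changes that did so ranged from -0.0678 to 0.475 for Sucla2, -0.588 to 0.0406 for Sdhaf1, -0.0094 to 0.289 for Pdha1, -0.0786 to 0.280 for Mpc1 and -0.0241 to 0.344 for Me2. With voom weights Mpc1 was at -0.095 and Me2 at -0.0045, and with both libraries of number 3 left out Sucla2 was at -0.0293 and Sdhaf1 at 0.0681. The difference in the Mpc1 to Mpc2 ratio ranged from -0.17 to 0.18 with single libraries left out; the cause was not tested. Paired by number, the 4 ratios gave exact sign-flip p-values of 0.25 to 1, where 0.25 is the smallest possible.

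Genes called with s4U, 4 in the reported fit, were 37 with no low-count filter, 591 with DESeq2, 0 to 2 with single libraries left out, 0 within vcAlkbh5, 0 within WT and 0 with both libraries of number 3 left out. DESeq2 called 2 members with s4U, and no other alternative called any. The median member level was 21.7 CPM per kb with the longest coding transcript. A lone library in a group was assumed to vary like the others. Depth limits Pdk2 (17 to 42 counts per library), Pcx (34 to 101) and Pdp1 (44 to 166) most.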
